A study of Mus musculus with 32 samples.

Results

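The comparison described here follows how bone marrow-derived macrophages (BMDMs) of the genotypes *Trex1* FL/FL and *Trex1* WT/FL differed after 4-OHT from day 3 to day 4 after the exposure, and sorts genes by whether this difference was gained, lost or reversed. It rests on 8 of the 32 libraries of the study, namely the 4-OHT-treated libraries of days 3 and 4, with 2 libraries for each genotype and day. BMDMs are macrophages grown in culture from mouse bone marrow with the growth factors of L929 cell supernatant. All cells carried R26 CreERT2, a Cre recombinase expressed from a locus that is active in most cell types and not only in macrophages, which enters the nucleus once 4-hydroxytamoxifen (4-OHT) binds to it. *Trex1* FL/FL cells can lose both floxed alleles and *Trex1* WT/FL control cells keep a wild type allele, so that the controls also carried Cre, a floxed allele and the 4-OHT. Both genotypes received 2 µg/ml 4-OHT for 22 h. Untreated cells of both genotypes, harvested on the same days, served as the background. The labels name no animal, culture, batch or replicate number, so that p-values measure the spread between libraries, which may be technical, and TREX1 protein was not measured by these libraries.

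TREX1 is an exonuclease that degrades DNA outside the nucleus. Without it, self DNA can bind the sensor cGAS, whose product activates STING, and STING signals through IRF3 to type I interferon (IFN). Secreted IFN acts back on the cells through its receptor and induces IFN-stimulated genes (ISGs), many of which carry interferon-stimulated response elements (ISREs) in their promoters. The other gene group that recurs below serves mitosis: cyclins, kinases, kinesins and kinetochore proteins whose transcripts accumulate late in the cell cycle, driven by B-MYB and FOXM1 through promoter elements that include the cell cycle homology region (CHR) and the CCAAT box.

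The 8 libraries held between 36698887 and 63760884 estimated counts, and 15257 genes were tested. Levels are given as CPM, the counts scaled to a common library size, and differences as log2 fold changes of *Trex1* FL/FL against *Trex1* WT/FL cells. The change of a gene is its difference on day 4 minus its difference on day 3, so that a positive change means a move towards higher levels in *Trex1* FL/FL cells. Each adjusted p comes from the quasi-likelihood test of edgeR, adjusted after Benjamini and Hochberg for all tested genes. A gene was called at an adjusted p below 0.01 with a log2 change beyond 1.5 in either direction, and the difference within a day was taken as present at an adjusted p below 0.01. A gene gained its difference where this was present on day 4 and larger than on day 3, and reversed it where it was present on both days with opposite signs. It counted as lost where the difference was present on day 3 and smaller on day 4, whether or not it was still present then. With 2 libraries on each side an exact two-sided permutation test cannot go below p = 0.33, and the tests therefore borrow the spread of all 16 groups. *Trex1* (chromosome 9, 108887001 to 108888802 of GRCm39) held 0 and 0 counts in *Trex1* FL/FL cells on day 3 and again on day 4. The *Trex1* WT/FL libraries held 3622 and 3556 counts on day 3 and 2830 and 2267 counts on day 4. With 1 genotype at 0 on both days no change of its difference can be read, and all its words of 31 bases also occur in transcripts of other genes.

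Between days 3 and 4 the genotypes moved apart in 2 gene groups. Mitotic genes, most of which did not pass as different on day 3, were lower in *Trex1* FL/FL cells on day 4. ISGs, most of which were already higher in *Trex1* FL/FL cells on day 3, had a larger difference on day 4, with levels that fell in *Trex1* WT/FL cells. In all, 139 genes were called, of which 32 had a higher change, 0.210% of the tested genes, and 107 a lower change, 0.701% of them. The difference was gained by 130 genes, lost by 1 gene and reversed by 6 genes, while 2 genes differed on neither day by the criterion used. The median change of all tested genes was -0.00927. Of the called genes 135 were protein coding. In 3 of them, *Col19a1*, *Gm20667* and *Sapcd2*, a group held at most 3 counts in both libraries, so that their fold changes depend on the prior count.

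**Figure D1:**
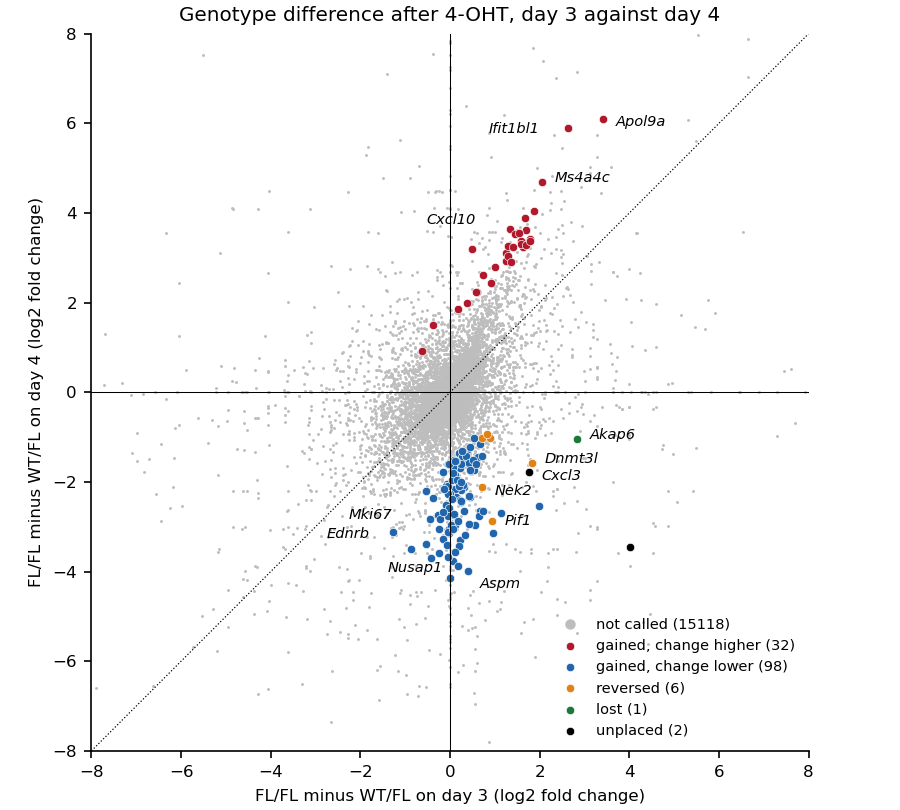
Log2 fold change of *Trex1* FL/FL against *Trex1* WT/FL cells after 4-OHT on day 3 (horizontal axis) and day 4 (vertical axis), 1 point per tested gene, coloured by class, with the dotted line marking equal differences. The axes end at 8 in either direction, and 21 genes that were not called lie outside this range and are not shown. The 32 red points lie above the line and the 107 points called with a lower change lie below it, most of them close to 0 on day 3.

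The groups of called genes differed in where they stood on day 3. Among the 32 genes with a higher change, 25 already differed between the genotypes on day 3, against 12.1% of all tested genes, and all 32 differed on day 4, against 21.5% of all tested genes, which the class requires. The median difference of these genes was 1.38 on day 3 and 3.26 on day 4. Those that did not differ on day 3 were *Gbp2*, *Gbp5*, *Ifi208*, *Ms4a4b*, *Arhgef10*, *Kbtbd11* and *Gm41442*. Among the 98 genes that gained a difference with lower levels in *Trex1* FL/FL cells, only *Ednrb* differed on day 3, and 68 had a day 3 estimate above 0. This is partly set by the classes, since a gene that passed as higher on day 3 and lower on day 4 counts as reversed. The 6 reversed genes and *Akap6*, which also had a lower change, differed on day 3 as well. The median difference of all 107 genes with a lower change was 0.21 on day 3 and -2.28 on day 4.

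The genotype that moved was not the same in both groups. The moves within the genotypes make up the change by which genes were called. Their shares below are therefore raised by the selection and are no separate evidence. In 4-OHT-treated *Trex1* WT/FL cells 31 of the 32 genes with a higher change fell from day 3 to day 4 (adjusted p below 0.01, a fall that 5.93% of all tested genes showed). In *Trex1* FL/FL cells 29 of the 32 did not pass, *Ccnd2* and *Arhgef10* rose, and *Tnfsf8* fell, against 3.64% of tested genes that rose and 5.70% that fell. The medians were -1.76 in *Trex1* WT/FL and 0.11 in *Trex1* FL/FL cells. The genes with a lower change moved on both sides. Of the 107 genes, 66 fell in *Trex1* FL/FL cells and rose in *Trex1* WT/FL cells, 17 only fell in *Trex1* FL/FL cells, 22 only rose in *Trex1* WT/FL cells, *Fads2* fell in both, and *Depdc1b* passed in neither. A rise in *Trex1* WT/FL cells was found for 6.23% of all tested genes. The medians of the 107 genes were -1.37 in *Trex1* FL/FL cells and 1.03 in control cells of the *Trex1* WT/FL genotype. In bulk RNA, fewer cells that express a gene and less RNA per cell cannot be told apart.

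**Figure D2:**
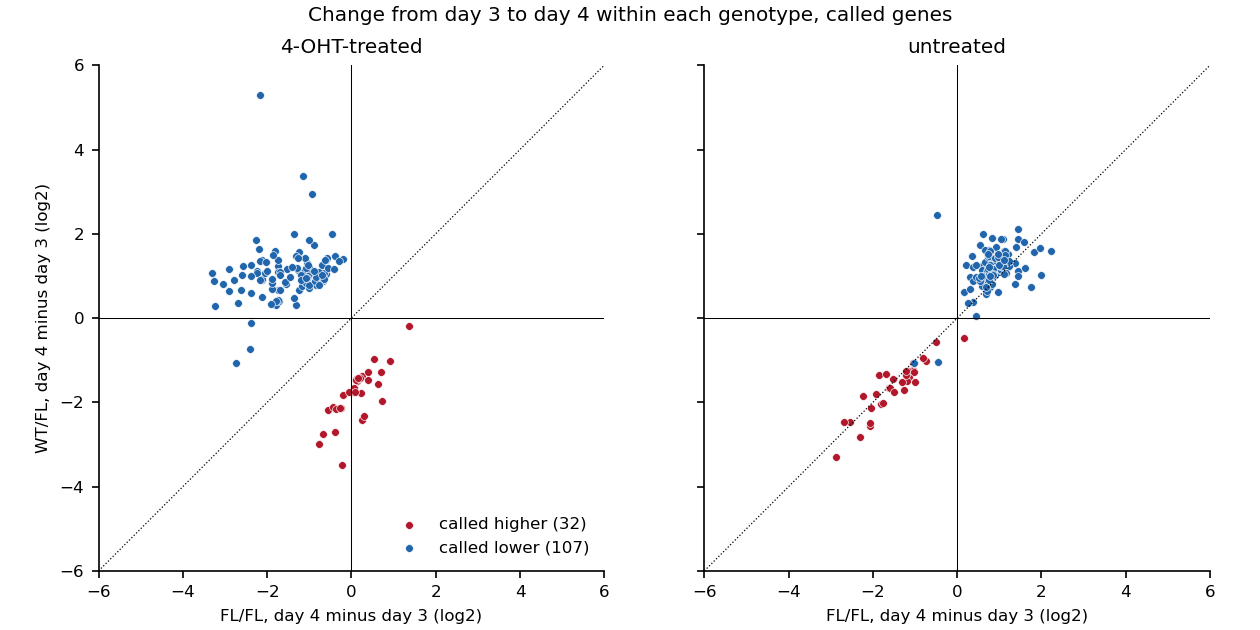
Log2 change from day 3 to day 4 within *Trex1* FL/FL (horizontal axis) and *Trex1* WT/FL cells (vertical axis) for the 139 called genes, after 4-OHT (left) and without it (right). After 4-OHT the genes leave the dotted line of equal change, with medians of -1.76 in *Trex1* WT/FL and 0.11 in *Trex1* FL/FL cells for the red points, while in untreated cells these medians were -1.52 and -1.51.

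In untreated cells both genotypes took the course of the 4-OHT-treated *Trex1* WT/FL cells. The 32 genes with a higher change had a median day 4 minus day 3 change of -1.51 in untreated *Trex1* FL/FL and -1.52 in untreated *Trex1* WT/FL cells, and 27 and 29 of them fell. The 107 genes with a lower change had medians of 0.82 and 1.21, and 74 and 93 of them rose. No gene was called for a change of the genotype difference in untreated cells by edgeR, 1484 genes had an unadjusted p below 0.05, and DESeq2 called 1 gene. The change after 4-OHT minus the change without it was tested directly. It was called for 60 genes, 0.393% of those tested, of which 56 were lower and 4 higher. The 4 higher genes were *Ifit1bl1*, *Tnfsf8*, *Kdr* and the pseudogene *Ifi203-ps*. Of the 107 genes with a lower change 54 were among the 60. Of the 32 genes with a higher change 3 were among them, while 18 passed at an adjusted p below 0.05. For most genes with a higher change a difference from untreated cells was thus not shown at the threshold of 0.01. The largest absolute change of these 32 genes in untreated cells was 0.65, below their smallest change after 4-OHT of 1.515. No sign could therefore turn when the untreated change was subtracted, and all 32 estimates kept theirs.

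Genes of mitosis made up the largest group. In the list of kinetochore, spindle and cytokinesis genes 43 of 60 tested genes were called with a lower change, against 0.701% of all tested genes. A higher change was called for 0 of the 60, and all 60 estimates were below 0. The median change of the list was -2.01, with a median difference of 0.07 on day 3 that became -1.86 on day 4. Of the 60 genes, on day 3, 1 was higher and 1 lower in *Trex1* FL/FL cells, and on day 4, 57 were lower and 1 was higher. Averaged over the list, log2 CPM on day 3 was 2.46 and 2.27 in *Trex1* FL/FL libraries against 2.39 and 2.17 in *Trex1* WT/FL libraries, which overlap. On day 4 it was 1.21 and 1.12 in *Trex1* FL/FL against 3.13 and 3.09 in *Trex1* WT/FL libraries, which are far apart. Untreated *Trex1* FL/FL libraries stood at 2.64 and 2.52 on day 3 and at 3.25 and 3.29 on day 4. Both genotypes and both treatments thus shared a low level on day 3, from which all groups but the 4-OHT-treated *Trex1* FL/FL cells came up.

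**Figure D3:**
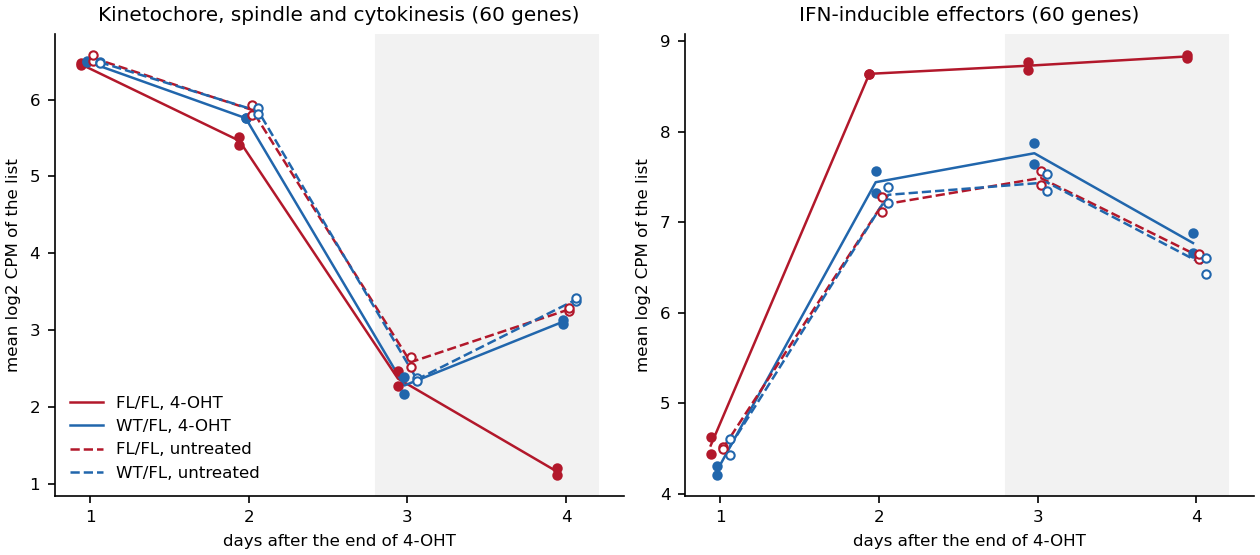
Mean log2 CPM of 60 mitotic genes (left) and 60 IFN-inducible genes (right) on days 1 to 4 after the end of 4-OHT, 1 point per library and lines through the group means, with days 3 and 4 shaded. On day 4 the mitotic list stood at 1.21 and 1.12 in 4-OHT-treated *Trex1* FL/FL libraries and above 3 in all other libraries, and the IFN-inducible list stood at 8.85 and 8.81 there and at 6.66 and 6.88 in *Trex1* WT/FL libraries after 4-OHT.

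Among regulators of mitotic entry and exit, *Ccnb2*, a cyclin B (chromosome 9, 70314966 to 70328874), stood at 5.61 and 4.98 CPM in *Trex1* FL/FL and 5.67 and 4.22 CPM in *Trex1* WT/FL libraries on day 3, and at 0.775 and 0.484 against 7.98 and 9.40 CPM on day 4. The genotypes overlapped on day 3 and were separated on day 4, and the change was -3.84 (standard error 0.24, edgeR adjusted p = 2.14e-11). *Plk1* (chromosome 7, 121758646 to 121769108), a kinase of mitotic entry and spindle assembly, was at 4.62 and 3.68 against 3.79 and 3.75 CPM on day 3 and at 0.858 and 0.303 against 7.56 and 6.53 CPM on day 4. Its change was -3.69 (edgeR adjusted p = 3.89e-10). The cyclin *Ccna2* changed by -3.35 (edgeR adjusted p = 6.38e-13) and *Ccnb1* by -2.36 (edgeR adjusted p = 3.22e-05). *Cdk1*, the kinase that these cyclins bind, was not called, with 11.5 and 10.9 against 11.2 and 12.1 CPM on day 3, 11.9 and 9.90 against 19.1 and 17.1 CPM on day 4, and a change of -0.68 (edgeR adjusted p = 0.000478). Its *Trex1* FL/FL level did not pass between the days (log2 change -0.04, edgeR adjusted p = 0.85). Of the words of 31 bases in *Ccnb1* and *Plk1*, 23.7% and 10.7% also occur in other genes, which makes their counts less certain.

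The spindle protein genes *Aspm* and *Nusap1* had the largest changes among called genes of at least 1 CPM, followed by *Ccnb2* and *Plk1*. *Aspm* (chromosome 1, 139382486 to 139421829), which focuses spindle poles, was at 5.44 and 4.00 CPM in *Trex1* FL/FL and 3.96 and 3.04 CPM in *Trex1* WT/FL libraries on day 3. On day 4 it was at 0.471 and 0.454 against 7.90 and 6.83 CPM. The genotypes did not overlap on either day, but the day 3 difference did not pass the threshold (0.39, edgeR adjusted p = 0.096), and the change was -4.38 (standard error 0.30, edgeR adjusted p = 4.59e-10). *Nusap1* (chromosome 2, 119448779 to 119481725), which bundles spindle microtubules, changed by -4.06 (standard error 0.23, edgeR adjusted p = 1.76e-12) and went from 3.95 and 3.49 against 2.99 and 3.53 CPM to 0.664 and 0.303 against 6.65 and 7.89 CPM. Its groups overlapped on day 3 and were separated on day 4. *Hmmr*, a spindle assembly factor, changed by -3.63, *Kif2c*, a kinesin that depolymerizes microtubules at centromeres, by -3.53, and *Prc1*, which organizes the central spindle, by -2.80 (edgeR adjusted p = 3.88e-09, 1.25e-08 and 1.25e-12).

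More abundant proliferation genes showed the same separation at higher counts. *Mki67* (chromosome 7, 135291513 to 135318299), whose product coats mitotic chromosomes, was at 29.6 and 28.5 CPM in *Trex1* FL/FL against 34.6 and 33.1 CPM in *Trex1* WT/FL libraries on day 3 and at 5.76 and 7.66 against 47.9 and 47.2 CPM on day 4. It fell in *Trex1* FL/FL cells by 2.12 (edgeR adjusted p = 3.7e-12) and rose by 0.49 in *Trex1* WT/FL cells (edgeR adjusted p = 0.00036). *Top2a* (chromosome 11, 98883769 to 98915062), the topoisomerase that untangles sister chromatids, was at 24.7 and 21.5 against 22.5 and 17.2 CPM on day 3, where the groups overlap, and at 10.9 and 11.6 against 48.3 and 47.2 CPM on day 4. *Top2a* fell by 1.03 in *Trex1* FL/FL cells, whereas it rose by 1.26 in the controls, and its change was -2.29 (standard error 0.14, edgeR adjusted p = 1.58e-11).

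**Figure D4:**
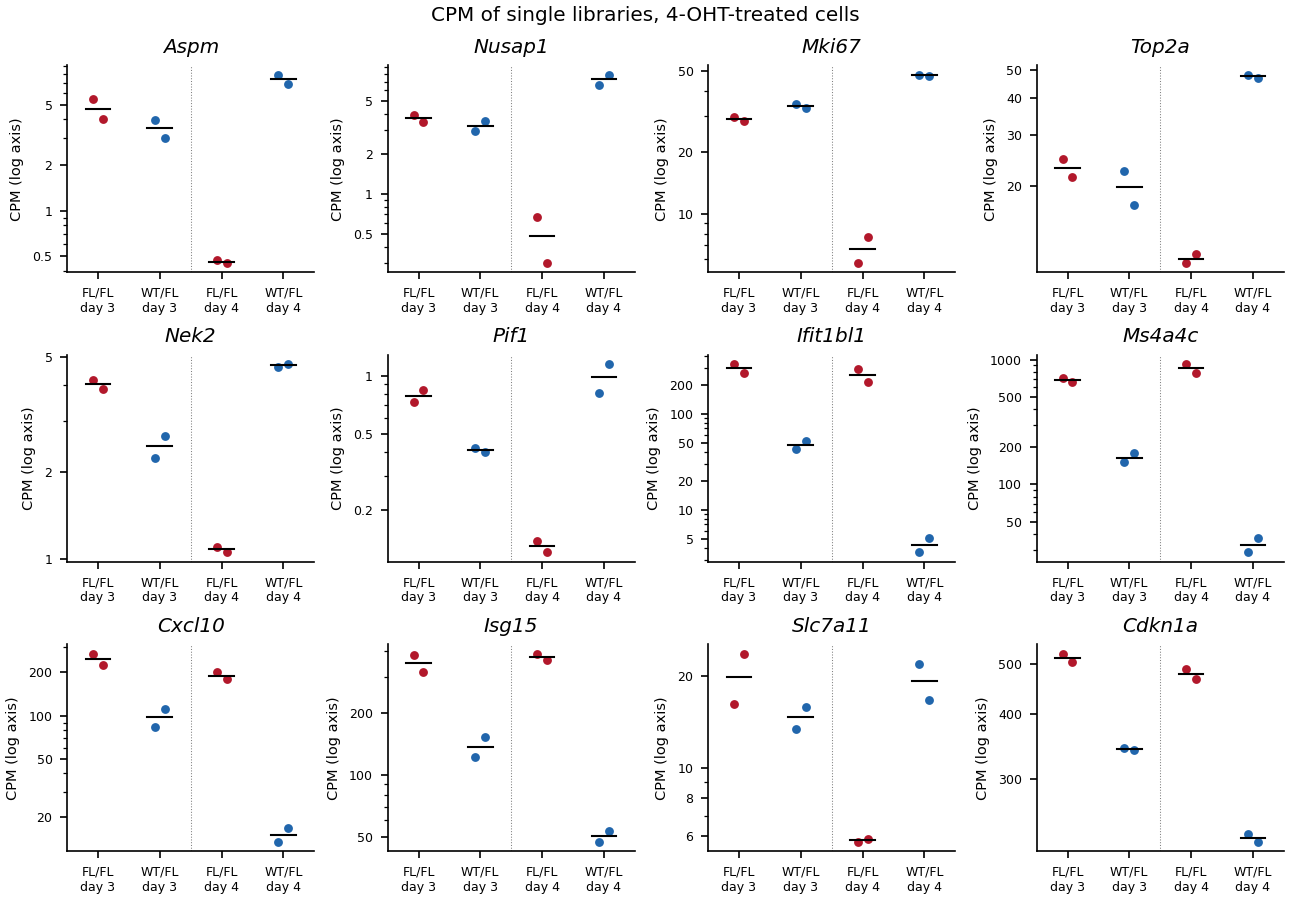
CPM of 12 genes in each 4-OHT-treated library (points) with the mean of each group (bars), on log axes that differ between panels. For *Mki67* the day 4 libraries lie at 5.76 and 7.66 CPM in *Trex1* FL/FL and at 47.9 and 47.2 CPM in *Trex1* WT/FL cells, whereas for *Cxcl10* the *Trex1* WT/FL libraries drop to 13.5 and 16.8 CPM and the *Trex1* FL/FL libraries stay near 200.

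The promoters of the genes with a lower change were searched for the CHR, TTTGAA, and for CCAAT, on both strands of the 250 bases before each RefSeq start. RefSeq held promoters for 87 of the 107 genes, with 98 windows. Of these 26.5% held TTTGAA, against 16.0% of all windows and 11.1% of those of tested genes, and 60.2% held CCAAT, against 33.8% of all windows and 35.4% of those of tested genes. These shares were not tested, and a match is a description of letters and not of a bound site. The 150 bases before the start are shown for 3 genes with TTTGAA or its reverse complement TTCAAA in this stretch, since they carry the element in a group that moved together, with the match in capitals (RefSeq, GRCm38.p6; *Kif2c* chr4:117178773-117178922 and *Ckap2l* chr2:129297213-129297362, both on the minus strand, and *Ube2c* chr2:164769779-164769928, on the plus strand).
Kif2c: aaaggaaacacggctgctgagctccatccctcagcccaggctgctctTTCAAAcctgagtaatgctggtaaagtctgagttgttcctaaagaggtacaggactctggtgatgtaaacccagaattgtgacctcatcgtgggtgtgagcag
Ckap2l: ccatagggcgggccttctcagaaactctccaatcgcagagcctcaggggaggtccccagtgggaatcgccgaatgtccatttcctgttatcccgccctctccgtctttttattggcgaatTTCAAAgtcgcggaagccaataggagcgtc
Ube2c: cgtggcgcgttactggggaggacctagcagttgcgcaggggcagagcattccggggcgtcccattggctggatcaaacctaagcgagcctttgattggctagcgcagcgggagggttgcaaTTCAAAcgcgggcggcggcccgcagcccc
The match lay 103 bases before the start in *Kif2c*, 30 bases in *Ckap2l* and 29 bases in *Ube2c*, a ubiquitin-conjugating enzyme of mitotic exit. The changes of these genes were -3.53, -3.40 and -3.05.

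Of 54 tested replication and nucleotide synthesis genes 2 were called, both with a lower change, against 0.701% of all tested genes. The median change of the list was -0.33. Estimates lay below 0 for 46 of the 54, and 9 passed as lower without a minimum change. On day 4, 25 were lower in *Trex1* FL/FL cells, against 4 on day 3. Of all 15257 tested genes 7825 estimates lay below 0, 310 passed as lower, and 1782 were lower on day 4, against 827 on day 3. The difference from the mitotic list was not tested. *Rrm2* (chromosome 12, 24757811 to 24764145), a subunit of ribonucleotide reductase, was at 3.60 and 3.92 CPM in *Trex1* FL/FL against 3.69 and 4.74 CPM in *Trex1* WT/FL libraries on day 3 and at 1.91 and 1.57 against 11.5 and 10.9 CPM on day 4, with a change of -2.53 (edgeR adjusted p = 3.75e-11). *Clspn*, a checkpoint adaptor at replication forks, was the other one, with a change of -1.99 (edgeR adjusted p = 3.77e-07). *Mcm5*, a subunit of the replicative helicase, rose in both genotypes, by 0.84 in *Trex1* FL/FL cells and by 1.26 in the controls (edgeR adjusted p = 3.2e-06 and 1.3e-09). Its libraries stood at 11.8 and 10.6 against 16.7 and 12.6 CPM on day 3 and at 19.3 and 20.7 against 35.1 and 35.4 CPM on day 4, and its change of -0.42 did not pass (edgeR adjusted p = 0.081).

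Homologous recombination and Fanconi repair use the sister chromatid to mend breaks and crosslinks. Of 24 genes of these pathways 6 were called, all with a lower change, against 0.701% of all tested genes. The median change of the list was -0.78. *Fanci* changed by -2.63 (edgeR adjusted p = 4.2e-06) and *Brca1* by -1.66 (edgeR adjusted p = 5.38e-05). *Brca1* stood at 6.75 and 4.96 against 4.70 and 4.13 CPM on day 3 and at 4.35 and 3.15 against 9.71 and 8.58 CPM on day 4. The *Brca1* groups did not overlap on either day and exchanged their order, although the day 3 difference did not pass (0.38, edgeR adjusted p = 0.13). Without 1 library the change of *Brca1* was -1.45 (*Trex1* FL/FL day 3 replicate 1) or -1.46 (*Trex1* FL/FL day 4 replicate 2), each short of the fold threshold.

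The wider list of cyclins and other cell cycle regulators did not share one direction. In the list of E2F, RB, cyclin and CDK inhibitor genes 1 of 31 genes was called higher and 3 lower, with a median change of -0.26. The shares of all tested genes were 0.210% called higher and 0.701% called lower. The lower genes were *Cdc25c*, a phosphatase that activates CDK1 (-3.32, edgeR adjusted p = 6.81e-05), *E2f7*, a repressor of the E2F family (-2.46, edgeR adjusted p = 0.000664), and *Cdkn3* (-2.42, edgeR adjusted p = 0.00201), all with levels of 2.52 CPM or less in the 8 libraries. *E2f7* lost its call without *Trex1* FL/FL day 3 replicate 2 (edgeR adjusted p = 0.051) or day 4 replicate 1 (edgeR adjusted p = 0.013). *Cdkn3* lost it without *Trex1* WT/FL day 4 replicate 2, *Trex1* FL/FL day 3 replicate 2 or *Trex1* FL/FL day 4 replicate 2, with edgeR adjusted p of 0.010, 0.011 and 0.022.

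Of the D-type cyclins, which link growth factor signals to cell cycle entry, *Ccnd2* and *Ccnd1* went the other way. *Ccnd2* (chromosome 6, 127102125 to 127129156) was at 10.8 and 12.7 CPM in *Trex1* FL/FL against 3.81 and 3.44 CPM in *Trex1* WT/FL libraries on day 3 and at 21.3 and 23.1 against 2.09 and 1.47 CPM on day 4. It rose in *Trex1* FL/FL cells by 0.91, fell in *Trex1* WT/FL cells (-1.01), and its change was 1.92 (standard error 0.26, edgeR adjusted p = 1.58e-05). *Ccnd1* rose in both genotypes, by 1.83 in *Trex1* FL/FL cells and by 1.06 in the controls, and its change of 0.77 (edgeR adjusted p = 5.07e-05) stayed below the fold threshold. *Cdkn1a*, an inhibitor of cyclin-dependent kinases and a p53 target, was at 523 and 503 against 344 and 340 CPM on day 3 and at 489 and 468 against 235 and 227 CPM on day 4. It did not pass in *Trex1* FL/FL cells (-0.10, edgeR adjusted p = 0.26) and fell in *Trex1* WT/FL cells (-0.57, edgeR adjusted p = 4.3e-08), with a change of 0.47. *Ccne2*, a cyclin of S phase entry, had a change of -0.87 that did not pass (edgeR adjusted p = 0.41). Among 29 tested p53 targets 0 were called, and 1 was higher and 1 lower at an adjusted p below 0.01 without a minimum change. By that criterion 1.67% of all tested genes were higher and 2.03% lower.

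Of the 32 genes with a higher change, 16 belonged to the lists of IFN-inducible effectors and of the GBP and IRG families, and 13 belonged to none of the 30 lists. In the list of effectors 11 of 60 tested genes were called, against 0.210% of all tested genes called higher, and all 60 estimates were above 0. At an adjusted p below 0.01 without a minimum change 50 of the 60 passed as higher, against 1.67% of all tested genes. The median change was 0.93, with a median difference of 0.90 on day 3 and 1.76 on day 4. From day 3 to day 4, 58 of the 60 genes fell in *Trex1* WT/FL cells, whereas 3 rose and 1 fell in *Trex1* FL/FL cells. Averaged over the list, log2 CPM was 8.77 and 8.68 in *Trex1* FL/FL against 7.64 and 7.88 in *Trex1* WT/FL libraries on day 3 and 8.85 and 8.81 against 6.66 and 6.88 on day 4. In untreated cells it went from 7.57 and 7.41 to 6.59 and 6.65 in *Trex1* FL/FL and from 7.35 and 7.53 to 6.43 and 6.61 in *Trex1* WT/FL libraries. The list was thus highest in 4-OHT-treated *Trex1* FL/FL libraries on both days, and was lower on day 4 than on day 3 in the libraries of the other groups.

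*Ifit1bl1* (chromosome 19, 34570291 to 34579356), of the IFIT family that binds viral RNA, had the largest change among the 32 genes with a higher change. It stood at 327 and 263 CPM in *Trex1* FL/FL against 42.6 and 52.4 CPM in *Trex1* WT/FL libraries on day 3 and at 289 and 216 against 3.60 and 5.02 CPM on day 4. The genotypes were separated on both days, the *Trex1* FL/FL level did not pass between the days (-0.23, edgeR adjusted p = 0.52), and the change was 3.25 (standard error 0.32, edgeR adjusted p = 4.55e-06). *Ms4a4c* (chromosome 19, 11382131 to 11404610), a membrane protein gene, was at 711 and 657 against 151 and 177 CPM on day 3 and at 918 and 778 against 28.6 and 37.3 CPM on day 4, with a change of 2.63 (edgeR adjusted p = 2.38e-05). *Mx2*, a dynamin-like antiviral GTPase, changed by 1.51, *Isg15*, a ubiquitin-like modifier, by 1.55, and *Rsad2*, the antiviral enzyme viperin, by 1.64 (edgeR adjusted p = 7.45e-05, 0.00145 and 0.00923). *Rsad2* stood at 1053 and 949 against 244 and 337 CPM on day 3 and at 1129 and 1190 against 86.8 and 130 CPM on day 4.

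Other ISGs moved in the same direction but short of the fold threshold or of the adjusted p. *Ifit1* stood at 689 and 617 against 250 and 288 CPM on day 3 and at 705 and 661 against 98.0 and 111 CPM on day 4, and had a change of 1.43 (edgeR adjusted p = 0.000463). *Usp18*, the protease that removes ISG15 and restrains receptor signalling, had a change of 1.29 (edgeR adjusted p = 2.38e-05), and *Irf7*, a transcription factor that amplifies IFN expression, one of 1.07 that did not pass (edgeR adjusted p = 0.029). *Irf7* was at 2519 and 2260 against 873 and 1054 CPM on day 3 and at 2669 and 2434 against 463 and 518 CPM on day 4. *Ifnb1* itself was near the limit of detection, with 0.439 and 0.342 against 0.0381 and 0.0670 CPM on day 3 and 0.332 and 0.424 CPM against 0 in both libraries on day 4, and its change did not pass (edgeR adjusted p = 0.40).

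The calls of several of these genes rested on single libraries in fits that took no libraries as pairs. With consecutive library numbers fitted as a replicate block, 32 of the 32 higher calls were shared. Without *Trex1* WT/FL day 3 replicate 2 or without *Trex1* WT/FL day 4 replicate 1, *Isg15* changed by 1.39 and 1.47 (edgeR adjusted p = 0.010 and 0.013), *Mx2* by 1.35 and 1.40, *Rsad2* by 1.39 and 1.38 (edgeR adjusted p = 0.052 and 0.062) and *Gbp2* by 1.47 and 1.45, all without a call. *Isg15* also lost its call without *Trex1* FL/FL day 3 replicate 2 (1.43) and *Mx2* without *Trex1* FL/FL day 4 replicate 1 (1.41), and *Rsad2* kept its call in 2 of the 8 fits that each left out 1 library. *Ifit1* conversely passed the fold threshold without *Trex1* WT/FL day 3 replicate 1, *Trex1* WT/FL day 4 replicate 2 or *Trex1* FL/FL day 3 replicate 1, at 1.53, 1.52 and 1.52. The share of 31-base words held by other genes was 19.3% for *Ifit1bl1*, 16.0% for *Ms4a4c* and 11.5% for *Isg15*.

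GBP and IRG proteins are GTPases that attack vacuoles with intracellular pathogens. Of 18 tested members 5 were called with a higher change, against 0.210% of all tested genes, and 17 estimates were above 0. The median change was 1.28, with -0.30 in *Trex1* FL/FL cells and -1.61 in the controls from day 3 to day 4. *Iigp1*, an IRG protein, was at 402 and 359 CPM in *Trex1* FL/FL against 138 and 174 CPM in *Trex1* WT/FL libraries on day 3 and at 419 and 380 against 42.6 and 55.3 CPM on day 4, with a change of 1.74 (edgeR adjusted p = 0.000371). *Gbp2* went from 269 and 241 to 174 and 173 CPM in *Trex1* FL/FL libraries, which did not pass (edgeR adjusted p = 0.035), and from 150 and 187 to 32.2 and 42.2 CPM in *Trex1* WT/FL libraries, with a change of 1.63 (edgeR adjusted p = 0.000289). *Tgtp2* changed by 1.84 (edgeR adjusted p = 8.07e-05), but 90.5% of its words occur in other genes, so that its count cannot be told apart from those of its near copies. MHC class I genes, which present peptides to cytotoxic T cells, had 0 of 24 called and a median change of 0.44. At an adjusted p below 0.01 without a minimum change 9 of the 24 were higher, against 1.67% of all tested genes.

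The promoters of the genes with a higher change were searched for the core of the ISRE, GAAANNGAAA, on both strands of the same windows. RefSeq held promoters for 22 of the 32 genes, with 27 windows, and 55.6% of these windows held the core, against 2.98% of all windows, 2.83% of those of tested genes and 2.04% of those of genes with a lower change. TTTGAA was in 18.5% and CCAAT in 29.6% of the 27 windows. As above, the shares were not tested. The 150 bases before the start are shown for 3 genes with the core in this stretch, for comparison with the mitotic genes, with the match in capitals (RefSeq, GRCm38.p6; *Ifi205* chr1:174031756-174031905 and *Tgtp2* chr11:49064213-49064362, both on the minus strand, and *Ifit3* chr19:34583379-34583528, on the plus strand, where the match is the reverse complement).
Ifi205: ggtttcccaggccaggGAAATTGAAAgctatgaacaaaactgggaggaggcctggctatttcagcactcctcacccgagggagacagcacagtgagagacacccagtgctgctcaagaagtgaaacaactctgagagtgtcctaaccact
Tgtp2: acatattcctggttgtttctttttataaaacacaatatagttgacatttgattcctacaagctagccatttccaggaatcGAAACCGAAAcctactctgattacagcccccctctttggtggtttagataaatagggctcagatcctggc
Ifit3: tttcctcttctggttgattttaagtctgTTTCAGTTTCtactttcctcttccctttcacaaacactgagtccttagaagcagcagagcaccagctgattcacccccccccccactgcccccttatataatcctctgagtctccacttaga
The match lay 134 bases before the start in *Ifi205*, 70 bases in *Tgtp2* and 122 bases in *Ifit3*, and the changes of these genes were 2.18, 1.84 and 1.68.

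Among secreted ligands, *Cxcl10* (chromosome 5, 92494497 to 92496748), a chemokine that attracts T cells through CXCR3, was at 269 and 225 CPM in *Trex1* FL/FL against 84.1 and 111 CPM in *Trex1* WT/FL libraries on day 3 and at 200 and 179 against 13.5 and 16.8 CPM on day 4. It did not pass in *Trex1* FL/FL cells (-0.38, edgeR adjusted p = 0.35) and fell in *Trex1* WT/FL cells (-2.69), and its change was 2.31 (standard error 0.37, edgeR adjusted p = 0.000539). The TNF family ligand *Tnfsf10*, known as TRAIL, went from 31.3 and 33.4 against 17.9 and 20.8 CPM to 27.2 and 26.6 against 3.88 and 4.91 CPM, with a change of 1.88 (edgeR adjusted p = 9.18e-05). *Tnfsf8*, the ligand of CD30, fell in both genotypes, from 18.0 and 17.1 to 9.99 and 10.6 CPM in *Trex1* FL/FL and from 4.76 and 6.19 to 0.743 and 0.627 CPM in *Trex1* WT/FL libraries, with a change of 2.21 (edgeR adjusted p = 1.06e-05). In the list of chemokines and cytokines 2 of 34 genes were called higher, *Cxcl10* and *Tnfsf10*, and 1 was called lower, *Cxcl3*. The median change of this list was 0.44, and the shares called over all tested genes were 0.210% higher and 0.701% lower. *Cxcl3*, a neutrophil attractant, stood at 2.66 and 2.51 against 0.438 and 1.09 CPM on day 3 and at 0.526 and 0.151 against 1.64 and 0.713 CPM on day 4. Neither day passed for *Cxcl3* (edgeR adjusted p = 0.022 and 0.031), and its change of -3.55 kept its call in 3 of the 8 fits that each left out 1 library.

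*Apol9a* and *Ifi205* also had large changes, of 2.68 and 2.18, on less certain ground. *Apol9a* (chromosome 15, 77287989 to 77295335), an apolipoprotein L gene, was at 11.7 and 10.7 CPM in *Trex1* FL/FL against 0.857 and 1.25 CPM in *Trex1* WT/FL libraries on day 3 and at 13.3 and 13.4 against 0.101 and 0.303 CPM on day 4. Its adjusted p was 0.00525 with all libraries (edgeR), and between 0.0022 and 0.076 when each of the 8 was left out, with 2 of these fits keeping the call. *Ifi205*, of the family of cytosolic DNA-binding proteins that includes IFI204, was at 64.3 and 58.0 against 15.6 and 17.7 CPM on day 3 and at 96.4 and 91.8 against 5.06 and 6.29 CPM on day 4. The adjusted p of *Ifi205* was 0.0025 with all libraries and between 0.0060 and 0.023 without 1 of them, with 3 of 8 fits keeping the call. Other genes hold 20.2% of the words of *Apol9a* and 22.6% of those of *Ifi205*.

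A reversed difference, at an adjusted p below 0.01 on both days with opposite signs, was found for *Pif1*, *Dnmt3l*, *Nek2*, *Ddias*, *Oip5* and *Cenpi*. All were higher in *Trex1* FL/FL cells on day 3 and lower on day 4. *Nek2* (chromosome 1, 191553548 to 191565162), a kinase that separates centrosomes, was at 4.15 and 3.88 CPM in *Trex1* FL/FL against 2.25 and 2.66 CPM in *Trex1* WT/FL libraries on day 3 and at 1.11 and 1.06 against 4.63 and 4.71 CPM on day 4. Its difference went from 0.71 (edgeR adjusted p = 0.0014) to -2.10 (edgeR adjusted p = 1e-09). *Pif1* (chromosome 9, 65494442 to 65503249), a DNA helicase, was at 0.731 and 0.838 against 0.419 and 0.402 CPM on day 3 and at 0.138 and 0.121 against 0.810 and 1.15 CPM on day 4, so that its difference went from 0.95 to -2.87. In all 6 genes the genotypes did not overlap on either day, which the criterion of the class favours, so that it is no separate evidence.

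The other reversed genes lay lower or moved less. *Dnmt3l*, a cofactor of DNA methyltransferases, was at 1.02 and 0.838 against 0.267 and 0.246 CPM on day 3 and at 0.277 and 0.242 against 0.979 and 0.562 CPM on day 4. Its difference of 1.84 became -1.57, and it alone exceeded 1 on both days. *Cenpi* and *Oip5*, which act in centromere assembly, went from 0.71 to -1.01 and from 0.83 to -0.93, and *Ddias* from 0.88 to -1.03. The class depended on single libraries: of the 6 genes 5 were called for the change in all 8 fits that left out 1 library, but 0 of the 6 stayed in the reversed class in all of them. *Cenpi* had a change of -1.50, short of the fold threshold, without *Trex1* FL/FL day 4 replicate 2. Between 2 and 9 genes were reversed when 1 library was left out, the 2 without *Trex1* WT/FL day 3 replicate 2 and the 9 without *Trex1* WT/FL day 3 replicate 1. With only the 8 libraries in the fit 0 were reversed.

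Loss of the difference was rare among called genes. *Akap6* (chromosome 12, 52746017 to 53202382), a scaffold of protein kinase A, was the only one, with 0.234 and 0.359 CPM in *Trex1* FL/FL against 0.0761 and 0 CPM in *Trex1* WT/FL libraries on day 3 and 0.138 and 0.182 against 0.338 and 0.324 CPM on day 4. Its genotypes exchanged their order without overlap, but at very low counts and with a day 4 difference that did not pass (edgeR adjusted p = 0.12), and 5 of the 8 fits that left out 1 library called it. It does not meet the level set for named genes and was named after its values were seen.

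Without a minimum change 565 genes passed at an adjusted p below 0.01, of which 255 were higher and 310 lower, the latter 2.03% of the tested genes. Among them 488 gained a difference, 14 reversed it and 51 had a smaller one on day 4, which was still present in 13 and no longer in 38. The list of 30 genes of the amino acid response under the transcription factor ATF4 had a median difference of 0.93 on day 3 and 0.49 on day 4, and 6 of its genes passed for the change. In 5 of these the difference became smaller, 4 of which still differed on day 4, and 1, *Slc7a11*, gained a difference. The genes that follow in this paragraph were named after their values were seen. *Slc7a5*, an importer of large neutral amino acids, was at 16.8 and 14.9 CPM in *Trex1* FL/FL against 3.01 and 4.58 CPM in *Trex1* WT/FL libraries on day 3 and at 11.6 and 13.3 against 6.45 and 6.20 CPM on day 4, with a change of -1.10 (edgeR adjusted p = 0.0031). *Atf4* was at 175 and 166 against 87.7 and 84.3 CPM on day 3 and at 198 and 209 against 151 and 139 CPM on day 4, and its difference went from 0.99 to 0.49. *Aars1*, the alanyl-tRNA synthetase, went from 1.10 to 0.69. All of these differences were still present on day 4. *Atf4* rose by 0.26 in *Trex1* FL/FL cells and by 0.75 in the controls (edgeR adjusted p = 0.0083 and 7.4e-09), and *Aars1* rose by 0.27 in the controls (edgeR adjusted p = 0.00079).

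*Slc7a11* (chromosome 3, 49846975 to 50398070), the cystine importer and also a target of ATF4, behaved unlike the genes above. It stood at 16.2 and 23.7 CPM in *Trex1* FL/FL against 13.5 and 15.9 CPM in *Trex1* WT/FL libraries on day 3 and at 5.76 and 5.87 against 21.9 and 16.8 CPM on day 4. The genotypes did not overlap on either day, the day 3 difference did not pass (0.45, edgeR adjusted p = 0.14), and *Slc7a11* fell in *Trex1* FL/FL cells by 1.78 (edgeR adjusted p = 7e-06). Its change was -2.18 (standard error 0.30, edgeR adjusted p = 4.62e-05).

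Many lipid synthesis genes fell in both genotypes. All 33 tested genes of cholesterol and fatty acid synthesis had a change below 0, with a median of -0.39. From day 3 to day 4, 24 of them fell in *Trex1* FL/FL cells and 16 in the controls, with medians of -0.67 and -0.35. A fall was found for 5.70% of all tested genes in *Trex1* FL/FL cells and for 5.93% in the controls. *Fads2* (chromosome 19, 10038130 to 10079203), a fatty acid desaturase, was the only one called. It was at 20.4 and 19.8 against 14.5 and 14.8 CPM on day 3 and at 3.68 and 2.27 against 7.55 and 6.40 CPM on day 4, with a change of -1.68 (edgeR adjusted p = 3.22e-05), or -1.38 without *Trex1* FL/FL day 4 replicate 2. Without a minimum change, 2 genes of the list were reversed, *Fdps*, an enzyme of isoprenoid synthesis, from 0.41 to -0.45, and *Insig1*, a sterol sensor, from 0.30 to -0.33. These 2 were named after their values were seen.

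Among genes that mark macrophages and their activation states, *Adgre1*, which encodes F4/80, was at 4787 and 4607 against 4865 and 4592 CPM on day 3 and at 4862 and 4583 against 4984 and 4944 CPM on day 4 (change -0.06, edgeR adjusted p = 0.77). *Csf1r*, the receptor of M-CSF, was lower in *Trex1* FL/FL cells by 0.36 on day 3 and 0.28 on day 4, with a change of 0.08 (edgeR adjusted p = 0.67). *Mrc1*, a mannose receptor, was lower on both days (-0.85 and -1.09), and the change of *Mrc1* did not pass (-0.23, edgeR adjusted p = 0.60). *Apoe*, the apolipoprotein, had a change of 0.74 that did not pass (edgeR adjusted p = 0.51), and *Arg1* stood at 0.195 CPM or less in all 8 libraries. In the list of macrophage identity genes 0 of 33 were called, and 4 were higher at an adjusted p below 0.01 without a minimum change, which 1.67% of all tested genes were.

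The list of immediate early and NF-kappaB genes gave 0 calls among 43, and chemokines and cytokines formed the separate list described above. *Tnf* had a change of 0.43 (edgeR adjusted p = 0.15), with 14.9 and 14.6 against 13.3 and 12.2 CPM on day 3 and 37.4 and 39.2 against 25.6 and 23.5 CPM on day 4, so that it rose in both genotypes. *Il1b* had a change of 1.18 (edgeR adjusted p = 0.026). *Il1b* would be called without *Trex1* FL/FL day 3 replicate 2, at 1.61 (edgeR adjusted p = 0.0018). *Fosb* rose from 0.351 and 0.188 to 24.2 and 18.6 CPM in *Trex1* FL/FL and from 1.05 and 0.871 to 19.4 and 13.7 CPM in *Trex1* WT/FL libraries, and its change of 2.29 lay at the threshold (edgeR adjusted p = 0.0102). It was below it without *Trex1* WT/FL day 4 replicate 1 (0.0090) or *Trex1* FL/FL day 4 replicate 2 (0.0097). *Atf3* and *Egr2* kept differences of 0.60 and 0.73 and of -1.56 and -1.53 on days 3 and 4 (change 0.12 and 0.03, edgeR adjusted p = 0.54 and 0.99).

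**Figure D5:**
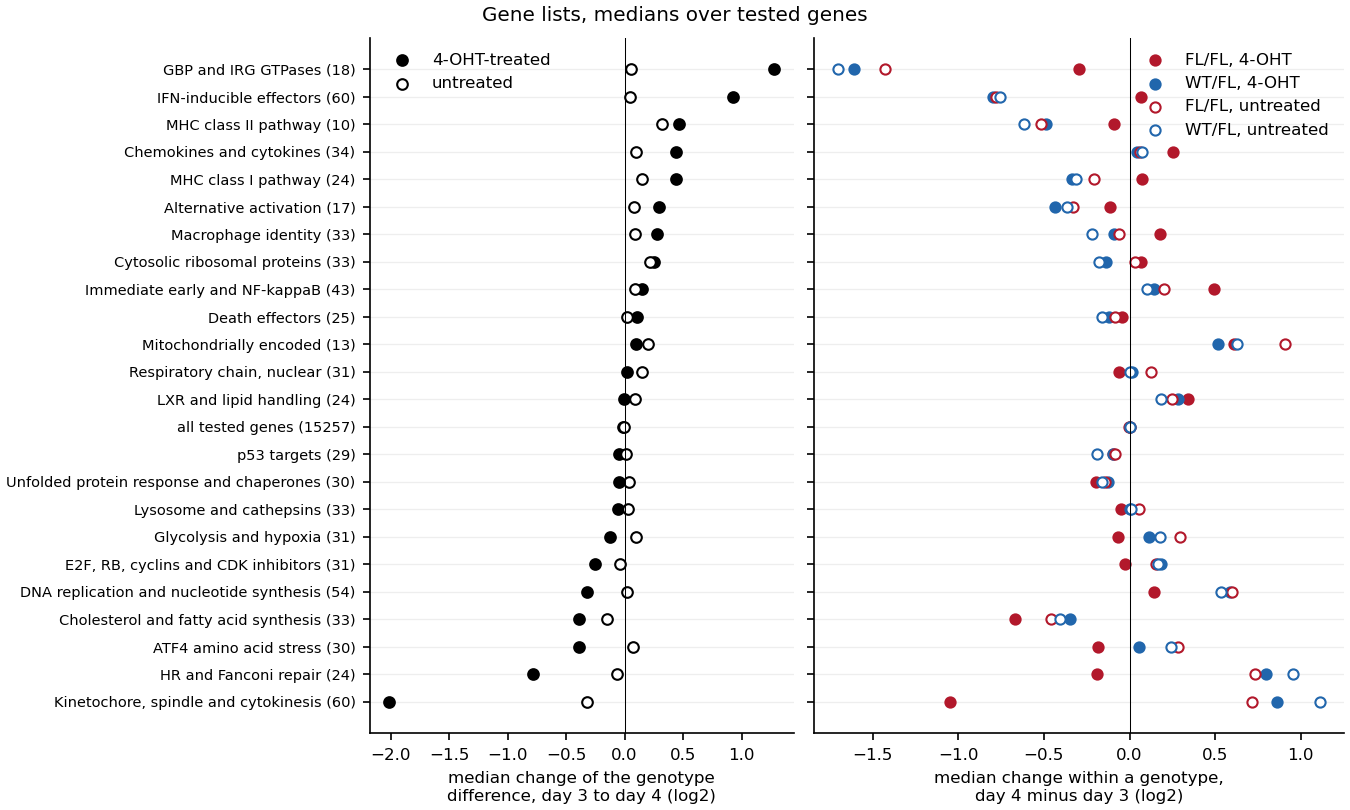
Median over the tested genes of each list (their number in brackets) of the change of the genotype difference from day 3 to day 4, after 4-OHT (filled) and without it (open) (left), and of the day 4 minus day 3 change within each group (right), in log2 units. After 4-OHT the mitotic list lies at -2.01, the GBP and IRG list at 1.28 and the IFN-inducible list at 0.93, against -0.00927 for all tested genes, and for these lists the 4-OHT-treated *Trex1* FL/FL cells stand apart from the other groups on the right.

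The labelled cell type was checked against 8 macrophage markers, all of which stood at 126 CPM or more in all 8 libraries. Their summed level was 35700 to 36000 CPM in *Trex1* FL/FL and 43300 to 45300 CPM in *Trex1* WT/FL libraries on day 3 and 26500 to 28100 and 29500 to 30600 CPM on day 4. Summed neutrophil markers lay between 189 and 232 CPM in all 8 libraries. Of 10 mast cell, 11 T and NK cell and 8 B cell markers 6, 7 and 2 were at 0 throughout. The highest neutrophil marker was *Csf3r*, at a mean of 174 CPM over the 8 libraries. The highest T and NK cell marker was *Cd4*, at 34.5 CPM. The 12 dendritic cell markers summed to 1090 to 1110 CPM in *Trex1* FL/FL and 706 to 815 CPM in *Trex1* WT/FL libraries on day 3 and to 1150 to 1170 and 494 to 535 CPM on day 4, and 0 of the 10 tested passed for the change. Most of this sum was *Bst2*, which is also on another list, with a change of 0.86 (edgeR adjusted p = 0.025), and *Tcf4* stood at 149 to 184 CPM. *Zbtb46*, *Batf3*, *Dpp4*, *Ccr7*, *Flt3*, *Itgae*, *Clec9a* and *Siglech* stood at 2.03 CPM or less and *Cd209a* at 0. Of the 11 erythroid and megakaryocyte markers 4 were at 0, and the highest was *Pf4*, at a mean of 73.3 CPM over the 8 libraries. The summed level of the 11 was 39.7 to 41.7 CPM in *Trex1* FL/FL and 68.5 to 78.6 CPM in *Trex1* WT/FL libraries on day 3. On day 4 it was 38.0 to 41.3 and 140 to 145 CPM. Of the 3 tested, 1 passed with a lower change without a minimum change. The 13 fibroblast and stroma markers summed to 5.59 CPM or less in all 8 libraries. The part of these markers in the results was not tested.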

How the data were processed

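RNA-seq of 32 BMDM libraries was deposited as 1 table of estimated counts per gene, of which the authors state that reads were demultiplexed, quantified with Salmon and summarised per gene with tximport. The submitters' processing notes name FastQC 11.9, DESeq2 1.32 and GRCm39. The tximport setting and the annotation release are not given in the sources used here. Counts were rounded to whole numbers. Of 54281 gene identifiers 51048 matched GENCODE vM39, the others held 0.32% of counts, and 0 columns were left unused.

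Groups were taken from the labels. Genes were filtered with filterByExpr (minimum count 10), which kept 15257, scaled by TMM and fitted in edgeR 4.0.16 (R 4.3.3, limma 3.58.1) with 1 mean per genotype, treatment and day over all 32 libraries (16 residual degrees of freedom), and contrasts were tested by quasi-likelihood F-tests, with p adjusted after Benjamini and Hochberg. DESeq2 1.42.0 and other scalings, filters, library sets and thresholds served as alternatives. The fit was checked on simulated counts. CPM is a level relative to the library, so that a shift in total RNA per cell is not seen. Library titles run in 8 series of consecutive numbers over the 4 days, which were not taken as pairs. Deviations of day 3 and day 4 libraries of a series correlated at 0.0703 to 0.0819 over all 15257 tested genes. This value covers all genes together and cannot exclude pairing in a gene group. In the IFN-inducible list, replicate 2 lay above replicate 1 on both days in *Trex1* WT/FL cells, with and without 4-OHT. In *Trex1* FL/FL cells replicate 1 lay higher on both days after 4-OHT, and without it the order turned. Libraries of 1 group differed by more than sampling noise (chi-square per degree of freedom 9.19 to 18.6). No fold is read from groups at or below the floor of 3 counts.

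Genes were named by rule: *Trex1*, in each class the 6 called genes with the largest changes (symbol other than a Gm or Rik number, mean of at least 1 CPM, no group at the floor), all reversed genes, up to 3 called members of each list and direction with the lowest p, and a fixed set of IFN, cell cycle, inflammatory and macrophage genes. Not every gene that the rule names is reported here. Other genes, such as *Ednrb*, *Kdr*, *Ckap2l*, *Ube2c*, *Ifit3* and *Bst2*, were chosen with their values in view. The members of the comparison, the 30 gene lists and this rule were chosen with earlier results of these data known.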

Additional observations from a re-analysis of the deposited data

Results flagged for a closer look

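The 139 genes whose genotype difference changed between days 3 and 4 after 4-OHT are results in which the same contrast differed between time points by a test of the difference itself. For 60 genes this change also differed between 4-OHT-treated and untreated cells. Of the reversed genes, *Pif1* changed by -3.81, *Dnmt3l* by -3.41, *Nek2* by -2.81, *Ddias* by -1.91, *Oip5* by -1.76 and *Cenpi* by -1.72, each with opposite signs of the genotype difference on the 2 days.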

How the results depend on the processing

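The labels give no replicate number, and the consecutive library numbers were used as a replicate block in a fit added after the data were seen (12 residual degrees of freedom). With this block 37 genes were higher, 105 lower, 132 gained, 2 lost and 6 reversed, and 32 of the higher and 102 of the lower calls were shared. The change of Cxcl3 was then not called (edgeR adjusted p = 0.021) and the change of Fosb was (edgeR adjusted p = 0.00044).

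None of the 139 calls turned direction in an alternative that also called the gene, and genes that an alternative did not call were left out of this count. Settings that changed only a threshold reused the same estimates, so that no direction could turn under them. DESeq2 shared 32 of the higher and 105 of the lower calls, DESeq2's size factors in edgeR 32 and 107, a fit of the 8 libraries alone 15 and 75, and subtraction of the untreated change 3 and 54. Higher calls numbered 67 with no filter on low counts, 4 with the untreated change subtracted, 92 at an adjusted p below 0.05 with a change beyond 1, 255 with no minimum change and 3 when the minimum was part of the test (glmTreat). Lower calls numbered 161, 56, 193, 310 and 56 under the same settings. Gained genes numbered 59 with the untreated change subtracted, 245 at the looser threshold, 488 with no minimum and 57 by glmTreat. Lost genes numbered 2 with DESeq2's size factors, 5 by DESeq2, 23 with no filter, 2 at a minimum count of 50, 2 with 8 and 3 with 16 libraries, 0 with the untreated change subtracted, 13 at the looser threshold, 51 with no minimum and 0 by glmTreat. Reversed genes numbered 13 by DESeq2, 24 with no filter, 0 with 8 libraries, 1 with the untreated change subtracted, 14 with no minimum, 2 by glmTreat, 17 with the days judged at an adjusted p of 0.05 and 1 with them judged at 0.01 beyond 1. With no filter, day 4 differed from day 3 in 196 genes of *Trex1* FL/FL and 213 of *Trex1* WT/FL cells, 50 genes were called in untreated cells and 192 for treated minus untreated change. DESeq2 called 1 and 107 in the last 2 comparisons.

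Leaving out each of the 8 libraries gave 18 to 43 higher, 92 to 113 lower, 103 to 137 gained, 1 to 4 lost and 2 to 9 reversed genes, 94 to 118 and 77 to 160 genes between the days in *Trex1* FL/FL and *Trex1* WT/FL cells, 0 to 0 in untreated cells and 45 to 74 for treated minus untreated change. The lone library was then assumed to vary like the other groups. Higher calls numbered 19 without *Trex1* WT/FL day 3 replicate 2 and 18 without *Trex1* WT/FL day 4 replicate 1, against 32. In all 8 fits 15 of the 32 higher and 74 of the 107 lower calls were made. Signs turned for the change of Atf3 (-0.038) and the change of Egr2 (-0.17) with the untreated change subtracted. When 1 library was left out, the change of Egr2 lay between -0.1388 and 0.2631, below 0 in 4 fits, and the change of Arg1 between -4.822 and 0.5688, above 0 without *Trex1* FL/FL day 3 replicate 2. None of these was called. The causes were not tested.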

Other observations

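In gene groups of metabolism and protein handling the median change was 0.02 for 31 nuclear genes of the respiratory chain, 0.10 for 13 mitochondrially encoded genes, 0.25 for 33 cytosolic ribosomal proteins, -0.12 for 31 glycolysis and hypoxia genes, -0.04 for 30 chaperone and unfolded protein response genes and -0.06 for 33 genes of lysosomes and cathepsins, with 0 genes called in each. Of the ribosomal proteins 30 of 33 estimates lay above 0, and 14 were higher in *Trex1* FL/FL cells on day 4 against 0 on day 3. Of all 15257 tested genes 7378 estimates lay above 0, and 1502 were higher on day 4 against 1021 on day 3. Of the glycolysis and hypoxia genes 4 passed as lower without a minimum change, and 17 were lower on day 4 against 9 on day 3. Lower levels were also found in more of all tested genes on day 4, 1782 against 827 on day 3. The mitochondrially encoded genes had a median difference between the genotypes of -1.0 on day 3 and -0.846 on day 4. Lists of 24 lipid handling genes under LXR, 25 death effectors, 17 genes of alternative activation and 10 MHC class II genes had median changes of -0.00121, 0.11, 0.30 and 0.47.

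At an adjusted p below 0.01 without a minimum change, *Clec10a*, a lectin of macrophages and dendritic cells, was among the genes whose difference became smaller and was still present on day 4. It was named after its values were seen. *Clec10a* stood at 31.8 and 30.9 CPM in *Trex1* FL/FL against 93.9 and 81.8 CPM in *Trex1* WT/FL libraries on day 3 and at 30.9 and 28.5 against 40.8 and 45.7 CPM on day 4. It fell in *Trex1* WT/FL cells (-1.02, edgeR adjusted p = 5.95e-09) and did not pass in *Trex1* FL/FL cells (-0.08, edgeR adjusted p = 0.66).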
